A study of Mus musculus with 6 samples.

Results

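The response to an agonistic antibody against LTβR, the receptor of lymphotoxin, was followed in BLS4 and BLS12, a pair of stromal cell lines established from adult lymph node (LN) of BALB/cA mice. The comparison took 4 of the study's 6 arrays, chosen by their labels alone: each line without stimulation and each line after 2 days with 1 µg/ml of the antibody, a goat polyclonal raised to mouse LTβR. All 4 cultures were grown in DMEM with foetal calf serum and antibiotics. The study profiled LN stroma, the lines and fibroblasts on Affymetrix arrays, and the other arrays served here as references for level. One held stroma sorted fresh from LN of adult C57BL/6JJcl mice as CD45-CD31-podoplanin+VCAM-1+ cells, and one held cultured fibroblasts (MEF) of C57BL/6JJcl embryos at embryonic days 11.5 to 13.5. Each line had 1 array per condition, and nothing in the labels said whether the cultures were repeated or whether a line was a clone. No culture received a control antibody, so effects of goat antibody as such cannot be told apart from effects through LTβR. Every p-value below therefore reflects how far the lines disagree within these 4 arrays alone, pooled in part over all genes tested. That spread may be technical.

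LTβR is a receptor of the tumour necrosis factor family on stromal cells, and its ligands, lymphotoxin and LIGHT, come mainly from lymphocytes. Its engagement activates the canonical NF-κB pathway, in which IκB proteins are degraded, and the slower non-canonical pathway, in which the kinase NIK (Map3k14) leads to processing of p100 (Nfkb2) and to nuclear RelB. In LN the receptor is needed for the organ to form, and afterwards for stromal cells to keep producing chemokines, adhesion molecules and survival factors. Levels are given as log2 of the deposited intensity, and a difference is antibody minus unstimulated, averaged over both lines unless a line is named.

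Of 11988 genes tested, 33 passed the threshold of an adjusted p of 0.05 in limma, with the cell line as a block. With antibody 24 of them rose, 0.2% of the genes tested, and 9 fell, which was 0.0751%. By size alone, 52 genes (0.434%) were at least 2-fold higher and 28 (0.234%) at least 2-fold lower in both lines, a rule that carries no test. All 33 genes past the threshold met that size rule too, which left 47 that met it without passing. The unadjusted p was under 0.05 for 1396 genes. Positive differences in both lines were found for 3398 genes (28.3%) and negative ones in both for 3779 (31.5%), and 0 genes were 2-fold apart in opposite directions. Of the 33, 17 had the larger difference in BLS4 and 16 in BLS12. After quantile normalization, and also with 16 added to each intensity, 6 of the 33 still passed: Spib, Mmp9, Nfkbie, Cxcl16, Birc3 and Scg2. The other 27 kept their direction and lost the call under both settings, while a fit that left the cell line out passed 0 genes in limma (241 at an unadjusted p under 0.05).

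**Figure D1:**
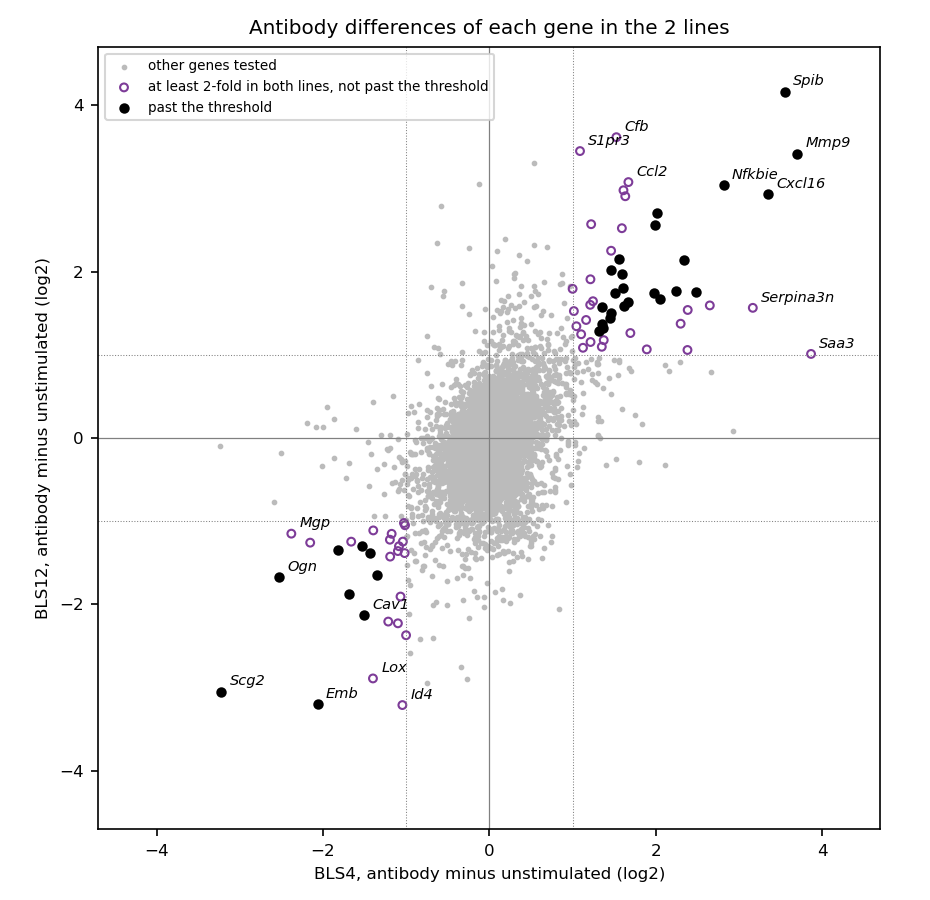
Antibody minus unstimulated difference (log2) of each of 11988 genes in BLS4 (horizontal axis) and BLS12 (vertical axis), 1 array per line and condition. Black points passed the threshold in limma, open purple circles were at least 2-fold apart the same way in both lines without passing, and the dotted lines mark 2-fold. Spib, Mmp9, Cxcl16 and Nfkbie lie far out on the upper right and Scg2 and Emb on the lower left, while the corners of opposite sign hold no gene beyond 2-fold in both lines.

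For the genes that rose, the median level was 6.59 in the unstimulated and 8.99 in the antibody-treated lines, against array medians of 5.69 to 5.82. Without antibody 16 of the 24 lay above the array median in both lines and 4 below in both, and with it all 24 lay above in both. The filter asked for 2 of the 4 arrays at or above the median, so those 4 (Cd74, Ubd, Slc15a3 and Gsap) could enter the test only through their antibody arrays. Genes between these groups, Spib, Cxcl10 and Rarres2 among them, lay above the median in a single unstimulated line and needed an antibody array to enter. Of the genes that fell, all 9 lay above the median in both unstimulated lines, and their median level went from 9.42 to 7.18. The filter and the call for a fall together favour a high start, so that start is no separate result. For 23 of the 24 that rose, both antibody arrays lay above both unstimulated ones, against 11.8% of all genes tested. For the 9 that fell, 7 showed the same separation downward, against 12.1%. These genes were chosen on the same 4 arrays, so the separation describes them and gives no further support.

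Promoter sequences were examined for the binding motif of NF-κB, the factor that LTβR activates. RefSeq promoter windows, from 250 bases before to 50 bases after the annotated start on build GRCm38.p6, were at hand for 15 of the 24 genes that rose and 8 of the 9 that fell. The κB consensus, a motif of 10 bases searched on both strands with overlapping matches merged, was found in 7 of the 15 (46.67%) and in 0 of the 8. It was found in 617 of the 9574 tested genes with a window (6.44%) and in 4.51% of all 32851 windows in the table. Among genes at least 2-fold higher in both lines, 13 of 37 (35.14%) held a match, and among those at least 2-fold lower 0 of 18. With a wider form of the consensus, chosen after the data were seen, the shares were 7 of 15 among the genes that rose, 1 of 8 (12.5%) among those that fell and 12.73% of tested genes. Ubd, and Madcam1 among the genes 2-fold higher, held a match and entered the test only through their antibody arrays. Spib and Cxcl10, above the median in a single unstimulated line, also needed an antibody array to enter. The shares above include these genes. A match is a description of letters, and no binding was measured.

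The matching windows of the 7 genes are shown because they carry these matches. A gene counted as holding a match if any of its windows did, and Tnfaip3 had a further window without a match. Each runs 5′ to 3′ on the gene's own strand, and capitals mark the κB matches. The windows lie at chr7:44532022-44532321 (minus strand) for Spib, chr17:45555450-45555749 (plus) for Nfkbie, chr10:19015361-19015660 (minus) for Tnfaip3 and chr12:55492598-55492897 (minus) for Nfkbia. Those of Cxcl10, Tnip1 and Ubd lie at chr5:92348840-92349139 (minus), chr11:54962891-54963190 (minus) and chr17:37193642-37193941 (plus).
Spib: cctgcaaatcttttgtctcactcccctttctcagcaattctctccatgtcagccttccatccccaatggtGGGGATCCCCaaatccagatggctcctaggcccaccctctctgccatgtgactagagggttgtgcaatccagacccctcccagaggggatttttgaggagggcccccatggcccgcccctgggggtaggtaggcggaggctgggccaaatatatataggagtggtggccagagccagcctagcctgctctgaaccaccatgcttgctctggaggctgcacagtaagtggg
Nfkbie: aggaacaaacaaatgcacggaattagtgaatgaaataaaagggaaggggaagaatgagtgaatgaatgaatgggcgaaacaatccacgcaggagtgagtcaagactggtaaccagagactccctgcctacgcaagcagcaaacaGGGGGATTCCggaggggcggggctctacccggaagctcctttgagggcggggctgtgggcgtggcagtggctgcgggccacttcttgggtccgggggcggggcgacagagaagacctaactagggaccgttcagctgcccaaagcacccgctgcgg
Tnfaip3: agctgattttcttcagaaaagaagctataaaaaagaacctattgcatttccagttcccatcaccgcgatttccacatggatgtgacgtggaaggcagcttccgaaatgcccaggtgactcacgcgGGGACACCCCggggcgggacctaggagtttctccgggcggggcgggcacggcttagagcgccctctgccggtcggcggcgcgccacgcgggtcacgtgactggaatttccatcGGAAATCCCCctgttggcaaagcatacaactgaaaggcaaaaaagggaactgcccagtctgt
Nfkbia: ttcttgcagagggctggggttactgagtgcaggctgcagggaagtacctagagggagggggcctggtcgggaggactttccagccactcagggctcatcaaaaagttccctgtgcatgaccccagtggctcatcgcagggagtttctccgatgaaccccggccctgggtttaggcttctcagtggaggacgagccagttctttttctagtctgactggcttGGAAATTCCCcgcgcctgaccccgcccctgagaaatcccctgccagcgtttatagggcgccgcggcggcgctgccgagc
Cxcl10: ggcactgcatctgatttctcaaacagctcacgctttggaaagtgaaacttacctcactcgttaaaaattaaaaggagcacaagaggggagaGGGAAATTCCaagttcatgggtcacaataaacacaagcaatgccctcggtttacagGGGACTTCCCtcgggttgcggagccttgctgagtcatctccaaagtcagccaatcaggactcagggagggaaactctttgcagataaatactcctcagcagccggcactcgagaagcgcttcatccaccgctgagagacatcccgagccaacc
Tnip1: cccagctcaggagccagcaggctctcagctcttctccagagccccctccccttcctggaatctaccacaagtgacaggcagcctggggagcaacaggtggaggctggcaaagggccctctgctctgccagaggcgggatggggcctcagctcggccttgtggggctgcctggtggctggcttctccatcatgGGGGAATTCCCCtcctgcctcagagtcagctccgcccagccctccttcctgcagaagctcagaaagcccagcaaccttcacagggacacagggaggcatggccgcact
Ubd: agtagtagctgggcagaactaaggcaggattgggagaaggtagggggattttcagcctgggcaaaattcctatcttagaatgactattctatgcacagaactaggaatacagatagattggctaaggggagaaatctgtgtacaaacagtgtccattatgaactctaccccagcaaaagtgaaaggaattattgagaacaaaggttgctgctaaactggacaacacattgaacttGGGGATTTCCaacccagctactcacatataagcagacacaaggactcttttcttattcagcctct

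The matches began between 180 bases (Spib) and 12 bases (Tnfaip3, its match nearest the start) upstream of the annotated start. Tnfaip3 and Cxcl10 each held a pair of matches, beginning 125 and 12 bases upstream in Tnfaip3 and 159 and 103 bases upstream in Cxcl10. In Tnip1 overlapping matches merged into a run of 12 bases, 58 bases upstream. Nfkbie had its match 106 bases, Nfkbia 29 bases and Ubd 15 bases upstream. Of the genes that were 2-fold higher without passing, Nfkb2, Ccl9, Casp4, Slc7a7, Madcam1 and H2-Q4 held matches.

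**Figure D2:**
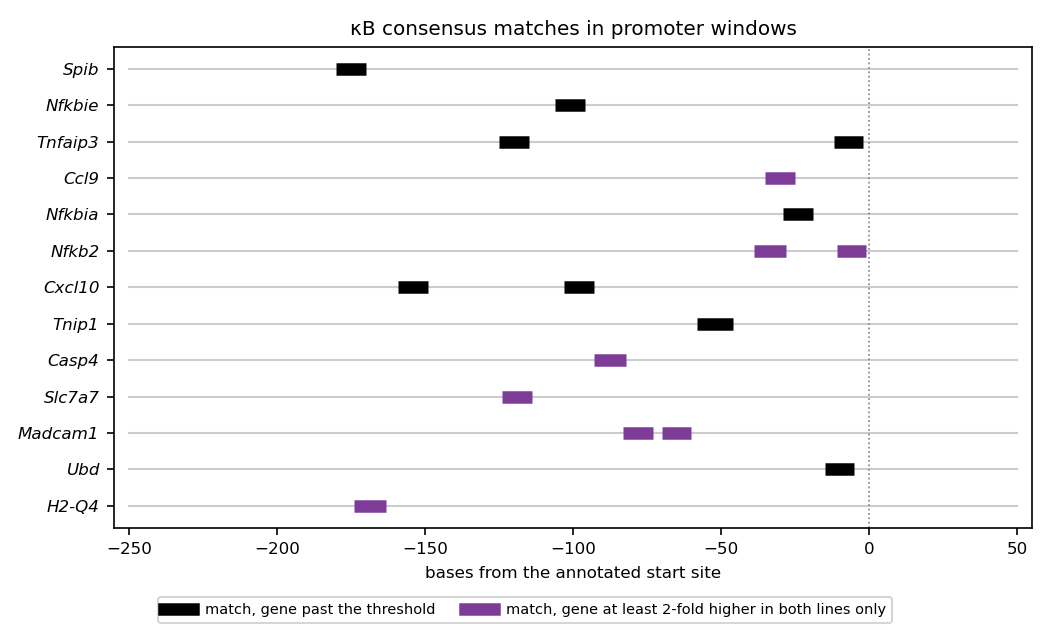
Position of κB consensus matches, in bases from the annotated start (dotted line at 0), in promoter windows of 300 bases (grey lines) of genes at least 2-fold higher with antibody in both lines, taking the first window of a gene that holds a match. Each row is 1 gene. Black blocks belong to the 7 genes past the threshold in limma and purple blocks to the 6 genes that met the size rule only. All blocks shown lie upstream of the start.

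Inhibitors and brakes of NF-κB formed one group of rises. Nfkbie, which encodes IκBε, an inhibitor that holds NF-κB dimers in the cytoplasm, went from 6.38 to 9.19 in BLS4 and from 6.37 to 9.41 in BLS12. The lines thus started and ended close together, and the difference was 2.93 (SE 0.145, adjusted p = 0.00573 in limma). Nfkbia, the gene of IκBα, went from 8.35 to 10.59 in BLS4 and from 8.62 to 10.38 in BLS12. Both treated arrays lay above both unstimulated ones, with a difference of 2.00 (SE 0.170, adjusted p = 0.0305). Tnfaip3 encodes A20, a ubiquitin-editing enzyme that shuts off signalling to NF-κB, and went from 6.82 to 8.83 in BLS4 and from 7.22 to 9.92 in BLS12. Its difference was larger in BLS12 (2.70) than in BLS4 (2.02), and the average was 2.36 (SE 0.199, adjusted p = 0.0305). Tnip1, a binding partner of A20, went from 6.95 to 8.47 and from 7.52 to 9.26, again without overlap, and rose by 1.63 (SE 0.145, adjusted p = 0.0337).

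The subunits of NF-κB and the IκB proteins were on the positive side almost throughout. Of 10 tested members 2 rose (Nfkbie and Nfkbia), 0 fell and 8 did not pass. Positive differences in both lines were found for 9, against 28.3% of all genes, and the median difference was 1.00 against -0.02 over all genes. Nfkb2, the p100 precursor of the non-canonical pathway, stood at 8.03 and 10.42 in BLS4 and at 9.27 and 10.81 in BLS12, unstimulated and treated. It met the size rule but not the threshold (1.96, SE 0.225, adjusted p = 0.0527), since its differences of 2.38 and 1.54 disagreed more than those of Nfkbie. Bcl3, an atypical IκB protein, had 1.30 in BLS4 and 0.89 in BLS12, Relb, the partner of p52, had 0.86 and 1.32, and Nfkbiz had 0.78 and 1.04. The canonical subunits had smaller values, with Rela at 0.39 and 0.42 and Rel at 0.15 and 0.28, and the atypical IκB protein Nfkbid had 0.48 and -0.09. Of 10 negative regulators 2 rose (Tnfaip3 and Tnip1), with a median of 0.21. Cyld, another deubiquitinase, had 0.48 and 0.61.

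Among the receptor and its proximal signalling proteins, the change was narrow. Of 18 tested members 1 rose, 0 fell and 17 did not pass. Positive in both lines were 11, against 28.3% of all genes tested, and the median was 0.15. The member that rose was Birc3, which encodes cIAP2, a ubiquitin ligase of the receptor complex. It went from 6.71 to 9.06 in BLS4 and from 7.03 to 9.16 in BLS12, so that the lines stood nearly level in each condition (2.24, SE 0.144, adjusted p = 0.0162). Its neighbour Birc2, encoding cIAP1, went from 7.17 to 8.76 and from 7.80 to 10.32 and met the size rule only (2.06, adjusted p = 0.0528). Birc2 had a further entry, dimmer in all 4 arrays, with differences of 0.94 and 1.77. In RefSeq's gene order on GRCm38.p6, no protein-coding gene lies between Birc2 and Birc3. Map3k14, the kinase NIK, had 1.23 and 0.70 (adjusted p = 0.125). Ltbr itself stood at 8.78 and 8.67 in BLS4 and at 8.74 and 8.55 in BLS12, and its difference was -0.16 (95% interval -0.50 to 0.19, adjusted p = 0.719). Traf3 was not analysed here.

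Chemokines that draw monocytes and T cells were among the rises. Cxcl16, a transmembrane chemokine for CXCR6-bearing cells, went from 5.77 to 9.13 in BLS4 and from 6.18 to 9.11 in BLS12. The treated arrays nearly coincided, about 3 log2 units above the unstimulated ones (3.14, SE 0.164, adjusted p = 0.00606). Ccl7, a monocyte attractant, went from 10.88 to 12.34 in BLS4 and from 9.17 to 11.19 in BLS12. BLS4 started higher, so the treated and unstimulated groups were separated by a narrow margin, while within each line the rise was clear (1.74, SE 0.181, adjusted p = 0.0456). Cxcl10, an attractant of CXCR3-bearing T cells, went from 5.75 to 7.36 and from 5.56 to 7.36, from about the array median in each line (1.70, SE 0.143, adjusted p = 0.0305).

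Of 8 tested CC chemokines 1 rose, 0 fell and 7 did not pass, with a median of 1.37. Positive in both lines were 7, against 28.3% of all genes tested. Ccl2, the main attractant of monocytes and the gene next to Ccl7, went from 10.20 to 11.87 in BLS4 and from 7.40 to 10.48 in BLS12. Ccl9 went from 8.48 to 10.11 and from 5.77 to 8.67. Both met the size rule only, with adjusted p of 0.0798 and 0.0747, and their unstimulated levels in BLS4 lay just below the treated levels in BLS12. Ccl5 had 1.55 and 0.91, and Ccl11 and Ccl8 stood apart between the lines, with 2.93 and 1.59 in BLS4 against 0.08 and 0.35 in BLS12. Of 7 CXC and CX3C chemokines 2 rose, 0 fell and 5 did not pass, with a median of 0.67. The neutrophil attractants Cxcl1 and Cxcl5 had 1.28 and 1.30 in BLS4 and 0.67 and 0.03 in BLS12.

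Of the chemokines that lymphoid stroma makes at rest, none that was tested passed. Ccl19, which guides T cells and dendritic cells, stood at 6.04 and 6.25 in BLS4 and at 6.04 and 6.39 in BLS12, against 12.49 in sorted LN stroma. Its difference of 0.28 had a 95% interval from -0.07 to 0.63 (adjusted p = 0.522). Cxcl12, the ligand of CXCR4, had -0.12 and -0.07, with an interval for the average from -0.44 to 0.25. Cxcl13, the B cell attractant, was below the intensity filter and not tested, at 4.69 and 4.77 in BLS4 and at 5.11 and 6.14 in BLS12, against 12.82 in LN stroma. Ccl21a was not analysed here.

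Spib had the largest difference of all genes tested. It encodes an ETS transcription factor related to PU.1, best known from B cells and plasmacytoid dendritic cells. Its level went from 5.10 to 8.66 in BLS4 and from 5.75 to 9.91 in BLS12. Without antibody it lay below the array median in BLS4 and at about the median in BLS12, and with antibody BLS4 stood near the level in LN stroma (8.95) and BLS12 above it, both well above MEF (4.69). The rise was 3.86 (SE 0.188, adjusted p = 0.00573). The other ETS factors tested did not move with it: of 15 members 1 rose, 0 fell and 14 did not pass, the median was 0.14, and apart from Spib the values averaged over the lines lay within 1 log2 unit of 0. Ets1 had -0.12 and 1.05 and Ets2 0.95 and -0.09.

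**Figure D3:**
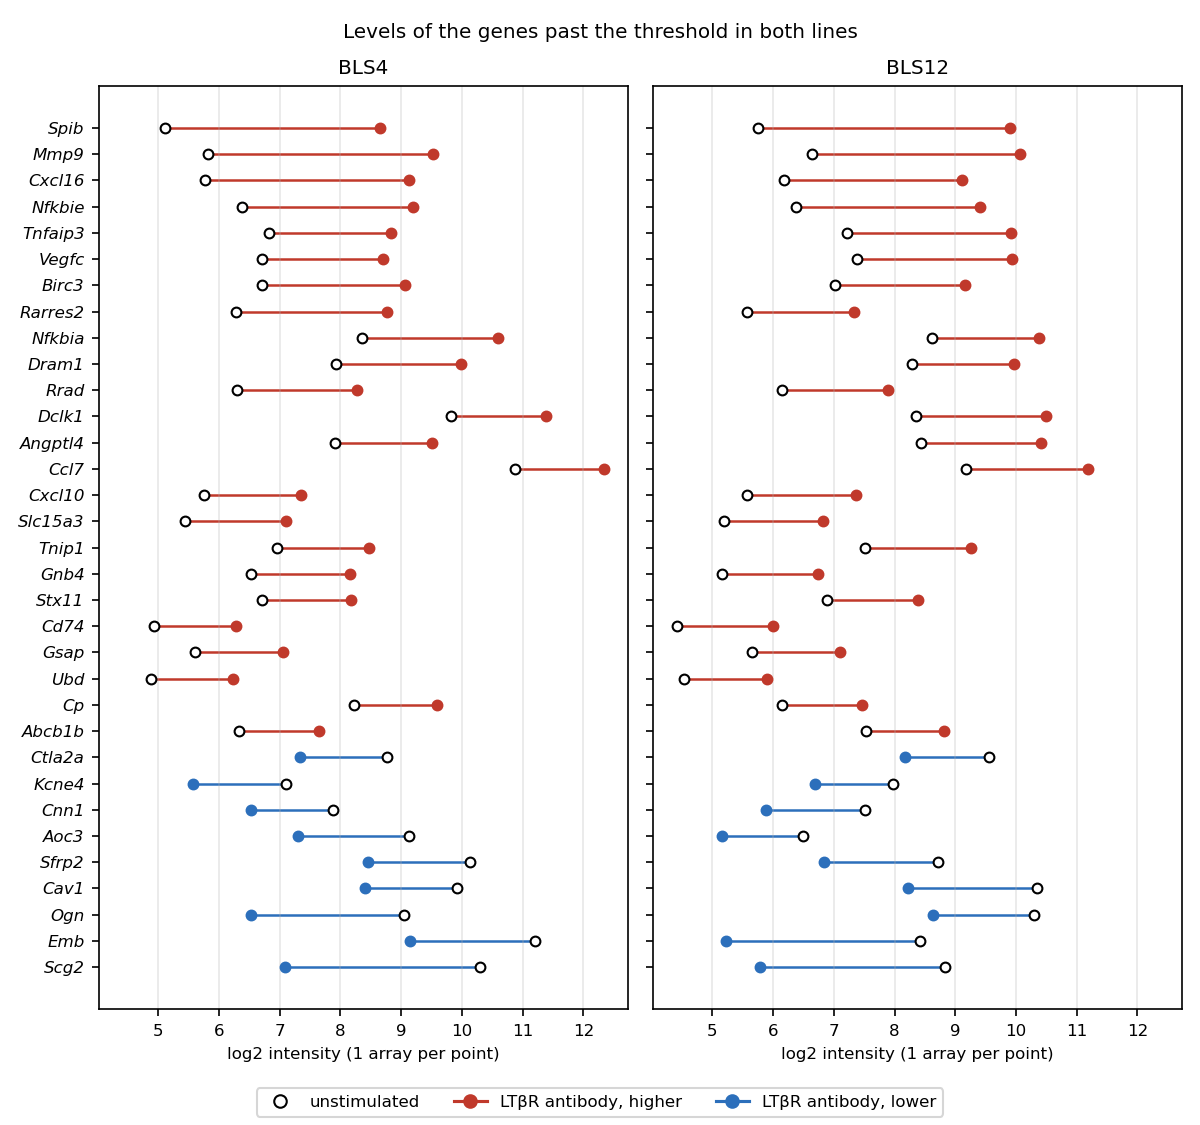
Level (log2 intensity, 1 array per point) of the 33 genes past the threshold in limma, in BLS4 (left) and BLS12 (right). Open circles are unstimulated, filled circles antibody-treated, red where higher and blue where lower with antibody. In Spib the left panel goes from 5.10 to 8.66 and the right from 5.75 to 9.91, and in Scg2 from 10.30 to 7.08 and from 8.84 to 5.79.

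Several of the rises encode secreted proteins other than chemokines. Mmp9, a gelatinase that cleaves basement membrane collagen, went from 5.82 to 9.52 in BLS4 and from 6.64 to 10.06 in BLS12, from at or somewhat above the array median to well above it (3.56, SE 0.149, adjusted p = 0.00573). Vegfc, the growth factor of lymphatic endothelium, went from 6.70 to 8.69 and from 7.38 to 9.93 and rose by 2.28 (SE 0.182, adjusted p = 0.0305). Rarres2, the precursor of the chemoattractant chemerin, went from 6.28 to 8.76 and from 5.58 to 7.34 (2.12, adjusted p = 0.0442). In each of these 3 genes both treated arrays lay above both unstimulated ones. Angptl4, an inhibitor of lipoprotein lipase, rose by 1.79 and Cp, the copper carrier ceruloplasmin, by 1.34. Cp was the gene whose rise left the groups overlapping, since treated BLS12 at 7.46 stayed below unstimulated BLS4 at 8.22.

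Few relatives of these secreted proteins passed the threshold. Of 29 matrix proteases and inhibitors 1 rose (Mmp9), 1 fell (Ctla2a) and 27 did not pass, and the median was -0.23. Mmp3, a stromelysin, had 1.31 in BLS4 and 0.78 in BLS12, while Mmp2, the other gelatinase, had -0.51 and 0.15. Of 20 stromal cytokines and growth factors 1 rose, 0 fell and 19 did not pass. Their median was 0.00, negative after centring each array on its median, and Vegfa had 0.33 and 0.65 against -0.06 and -0.04 in Vegfb. Of 17 retinoid, chemerin and prostaglandin genes 1 rose, 0 fell and 16 did not pass. Their median was 0.02, negative after centring and after quantile normalization.

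Acute phase and innate effector genes had 1 rise (Cp) among 20 tested members, 0 falls and 19 that did not pass. Positive in both lines were 12, against 28.3% of all genes tested, and the median was 0.23. Saa3, a serum amyloid, had 3.87 in BLS4 and 1.01 in BLS12, and Serpina3n, a protease inhibitor, had 3.17 and 1.56. Both met the size rule, and their adjusted p of 0.227 and 0.0920 missed the threshold. The mitochondrial superoxide dismutase Sod2 had nearly the same difference in both lines (1.00 and 1.05). In complement, Cfb, a component of the alternative pathway, was 2-fold higher in both lines, by 1.53 and 3.62, among 11 members of which none passed (median 0.48). Serping1, the C1 inhibitor, was negative in both lines, at -0.55 and -0.51.

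Antigen presentation genes were nearly all on the positive side. Cd74, the invariant chain of MHC class II, went from 4.92 to 6.28 in BLS4 and from 4.42 to 6.00 in BLS12. The unstimulated levels lay below the array medians and the treated ones just above, so the size of the rise (1.47, SE 0.145, adjusted p = 0.0445) is approximate. Ubd, the ubiquitin-like modifier FAT10, moved over the same range, from 4.89 to 6.24 and from 4.54 to 5.91 (1.36, SE 0.137, adjusted p = 0.0445). Of 14 antigen presentation genes tested 1 rose, 0 fell and 13 did not pass. Positive in both lines were 13, against 28.3% of all genes tested, and the median was 0.74. The immunoproteasome subunits Psmb8 (1.22 and 1.91) and Psmb10 (1.38 and 1.18) and the class I gene H2-Q4 (1.10 and 1.25) met the size rule. Psmb9, the remaining immunoproteasome subunit, had 0.36 and 0.79, and B2m, the light chain of class I, had 0.25 and 0.29.

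Genes of the interferon response lay on both sides. Of 26 tested members of the interferon response and its factors 1 rose (Cxcl10), 0 fell and 25 did not pass, with 12 positive and 10 negative in both lines, against 28.3% and 31.5% of all genes tested. The median was 0.07, negative after centring. Irf1, an interferon regulatory factor that NF-κB also controls, had 1.71 in BLS4 and 0.80 in BLS12. Bst2, an antiviral surface protein, had 1.07 and 0.90 and Irf5 0.75 and 0.73. Ifit1, Ifit2 and Ifit3, classical targets of type I interferon, were negative in both lines, with -0.08 and -0.52, -0.20 and -0.61, and -0.85 and -1.15.

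The remaining rises encode intracellular, membrane and signalling proteins. Dram1, a lysosomal protein linked to autophagy and a target of p53, went from 7.93 to 9.98 in BLS4 and from 8.29 to 9.96 in BLS12 (1.86, adjusted p = 0.0305). Rrad, a small GTPase of the RGK family, went from 6.29 to 8.26 and from 6.14 to 7.89 (1.86, adjusted p = 0.0305). In neither gene did the groups overlap. The kinase Dclk1 rose by 1.85, the peptide and histidine transporter Slc15a3 by 1.65, the G protein subunit Gnb4 by 1.60 and the syntaxin Stx11 by 1.48. Gsap, the γ-secretase activating protein, rose by 1.45 in both lines, and the multidrug transporter Abcb1b by 1.30. Autophagy and lysosome genes as a list, which was drawn without Dram1, held none that passed among 15 tested (median -0.06). Immediate early and MAP kinase feedback genes held 1 rise (Rrad) and 0 falls among 33. Their median was 0.05, negative after centring.

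Among cell death genes, 1 of 16 tested apoptosis regulators rose (Dram1), 0 fell and 15 did not pass. Positive in both lines were 10, against 28.3% of all genes tested, and the median was 0.29. Casp4, an inflammatory caspase, met the size rule with 1.70 and 1.26, as did Gsdmd, its pore-forming substrate, with 1.35 and 1.10. Fas, the death receptor, had 0.97 and 0.78. Other genes that met the size rule without passing were Jak2, a kinase of cytokine receptors (1.16 and 1.42), Il15ra, the receptor chain that presents IL-15 (1.46 and 2.25), and S1pr3, a sphingosine-1-phosphate receptor (1.09 and 3.45). Slfn2 (1.61 and 2.98) and the carbonyl reductase Cbr3 (1.22 and 2.57) were further examples in which BLS12 differed more. Lxn, the carboxypeptidase inhibitor latexin (2.38 and 1.06), and Aoc1, a diamine oxidase (2.65 and 1.59), differed more in BLS4.

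Adhesion molecules of lymphoid stroma differed unevenly. Madcam1, a ligand of the gut-homing integrin and a marker of marginal reticular cells, went from 5.47 to 6.48 in BLS4 and from 4.99 to 6.79 in BLS12. It met the size rule only, and both unstimulated levels lay below the array median (adjusted p = 0.0923). Icam1 had 0.17 in BLS4 and 1.65 in BLS12 (adjusted p = 0.401), and Vcam1 had 0.75 and 0.33 (adjusted p = 0.306). Pdpn, the podoplanin used to sort LN stroma, had 0.67 and 0.01. Of the survival factors, Tnfsf13b (BAFF) had 0.83 and 0.15 and stood at 10.48 in LN stroma. Il7 lay below the filter at 3.89 to 5.40 in the lines and was not tested.

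The largest fall was in Scg2, which encodes secretogranin II, a protein of secretory granules. It went from 10.30 to 7.08 in BLS4 and from 8.84 to 5.79 in BLS12. Both lines lost about the same amount, and treated BLS12 ended near its array median (-3.13, SE 0.142, adjusted p = 0.00573). Kcne4, a regulatory subunit of potassium channels and the neighbour of Scg2 on chromosome 1 with no protein-coding gene between them, went from 7.10 to 5.57 and from 7.98 to 6.68 (-1.41, SE 0.146, adjusted p = 0.0456). Of 7 tested secretory granule and neuropeptide genes 0 rose, 1 fell and 6 did not pass. Npr3, the clearance receptor of natriuretic peptides, met the size rule with -1.21 and -2.21.

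Emb, the adhesion molecule embigin, went from 11.20 to 9.14 in BLS4 and from 8.42 to 5.22 in BLS12. The lines differed so much at the start that treated BLS4 stayed above unstimulated BLS12, while the fall within each line was large (-2.63, SE 0.276, adjusted p = 0.0456). Aoc3, the vascular adhesion protein VAP-1, went from 9.12 to 7.31 and from 6.49 to 5.15, with the same overlap (-1.58, SE 0.170, adjusted p = 0.0485). Adhesion and surface molecules had 2 falls (Emb and Aoc3), 0 rises and 25 that did not pass among 27 tested. Ncam1 met the size rule with -1.07 and -1.91.

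Genes of the matrix and of the contractile and caveolar apparatus were among the falls. Ogn, a small leucine-rich proteoglycan also named mimecan, went from 9.05 to 6.53 in BLS4 and from 10.30 to 8.63 in BLS12 (-2.10, SE 0.226, adjusted p = 0.0485). Cav1, the main protein of caveolae, went from 9.92 to 8.41 and from 10.35 to 8.22 (-1.82, SE 0.189, adjusted p = 0.0456). Cnn1, the smooth muscle protein calponin, went from 7.88 to 6.53 and from 7.52 to 5.88 (-1.49, SE 0.150, adjusted p = 0.0445). In each of these 3 genes both treated arrays lay below both unstimulated ones. Sfrp2, a secreted modulator of Wnt signalling, went from 10.13 to 8.45 and from 8.71 to 6.83 (-1.78, SE 0.143, adjusted p = 0.0305). Ctla2a, which encodes a cysteine protease inhibitor, went from 8.76 to 7.33 and from 9.55 to 8.17 and fell by 1.41 (adjusted p = 0.0442). In Sfrp2 and Ctla2a too the groups did not overlap.

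The families around these genes had negative medians, with few members past the threshold. Counts negative in both lines, here and for caveolar, contractile and Wnt genes, stand against 31.5% of all genes tested. Of 22 collagens none passed, 17 were negative in both lines, against 31.5% of all genes tested, and the median was -0.29. Col3a1, a main collagen of reticular fibres, stood at 11.57 and 10.57 in BLS4 and at 12.56 and 11.37 in BLS12, unstimulated and treated. Elastic fibre and cross-linking genes had none past the threshold among 20 and a median of -0.30. Among them the crosslinking enzyme Lox (-1.40 and -2.89) and the elastic fibre protein Fbln5 (-1.10 and -2.23) met the size rule, while Tgm2, a transglutaminase, had 0.71 and 1.13. Of 26 matricellular and adhesive matrix proteins none passed and 14 were negative in both lines (median -0.34), with Sparcl1, a relative of Sparc, at -0.95 and -0.48. Small leucine-rich proteoglycans had 1 fall (Ogn) and 0 rises among 7, with 4 negative in both lines, Ogn included, and a median of -0.07.

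Caveolar genes had 1 fall (Cav1), 0 rises and 7 that did not pass among 8 tested, with 6 negative in both lines and a median of -0.46. Cavin1, the coat protein of caveolae, had -0.57 and -1.33, and Cav2 had -0.37 and -0.75. Contractile genes had 1 fall (Cnn1) and 0 rises among 18, with 11 negative in both lines and a median of -0.32. The myosin light chain Myl9 had -0.86 and -0.84, the kinase Mylk -0.60 and -0.68, and smooth muscle actin, Acta2, -0.55 and -0.47. Of 30 Wnt genes 1 fell (Sfrp2), 0 rose and 29 did not pass. Of the 30, 14 were negative and 1 positive in both lines, and 15 had opposite signs (median -0.13). The receptor Fzd4 met the size rule with -1.19 and -1.22 and an adjusted p of 0.0521, and Sfrp1, a relative of Sfrp2, had -0.98 and -0.82. Other genes at least 2-fold lower in both lines were Hes1, a target of Notch (-2.15 and -1.26), Id4, an inhibitor of helix-loop-helix factors (-1.04 and -3.21), and Mgp, matrix Gla protein (-2.38 and -1.15).

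Sterol synthesis and uptake had the lowest median of the lists, -0.63, with none past the threshold. Of 23 tested members 19 were negative in both lines, against 31.5% of all genes tested. Idi1, an isomerase of the mevalonate pathway, went from 9.83 to 8.94 in BLS4 and from 9.77 to 8.30 in BLS12 (adjusted p = 0.0931). The regulators Srebf1 and Scap were near 0, at -0.06 and 0.05 and at -0.01 and 0.11. Sterol efflux and oxysterol genes were on the other side, with 0 of 11 past the threshold and a median of 0.27. In both lines 6 were positive and 0 negative, against 28.3% and 31.5% of all genes tested. Ch25h, which makes 25-hydroxycholesterol, had 2.67 and 0.80, and the efflux pump Abca1 had 0.55 and 1.77.

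**Figure D4:**
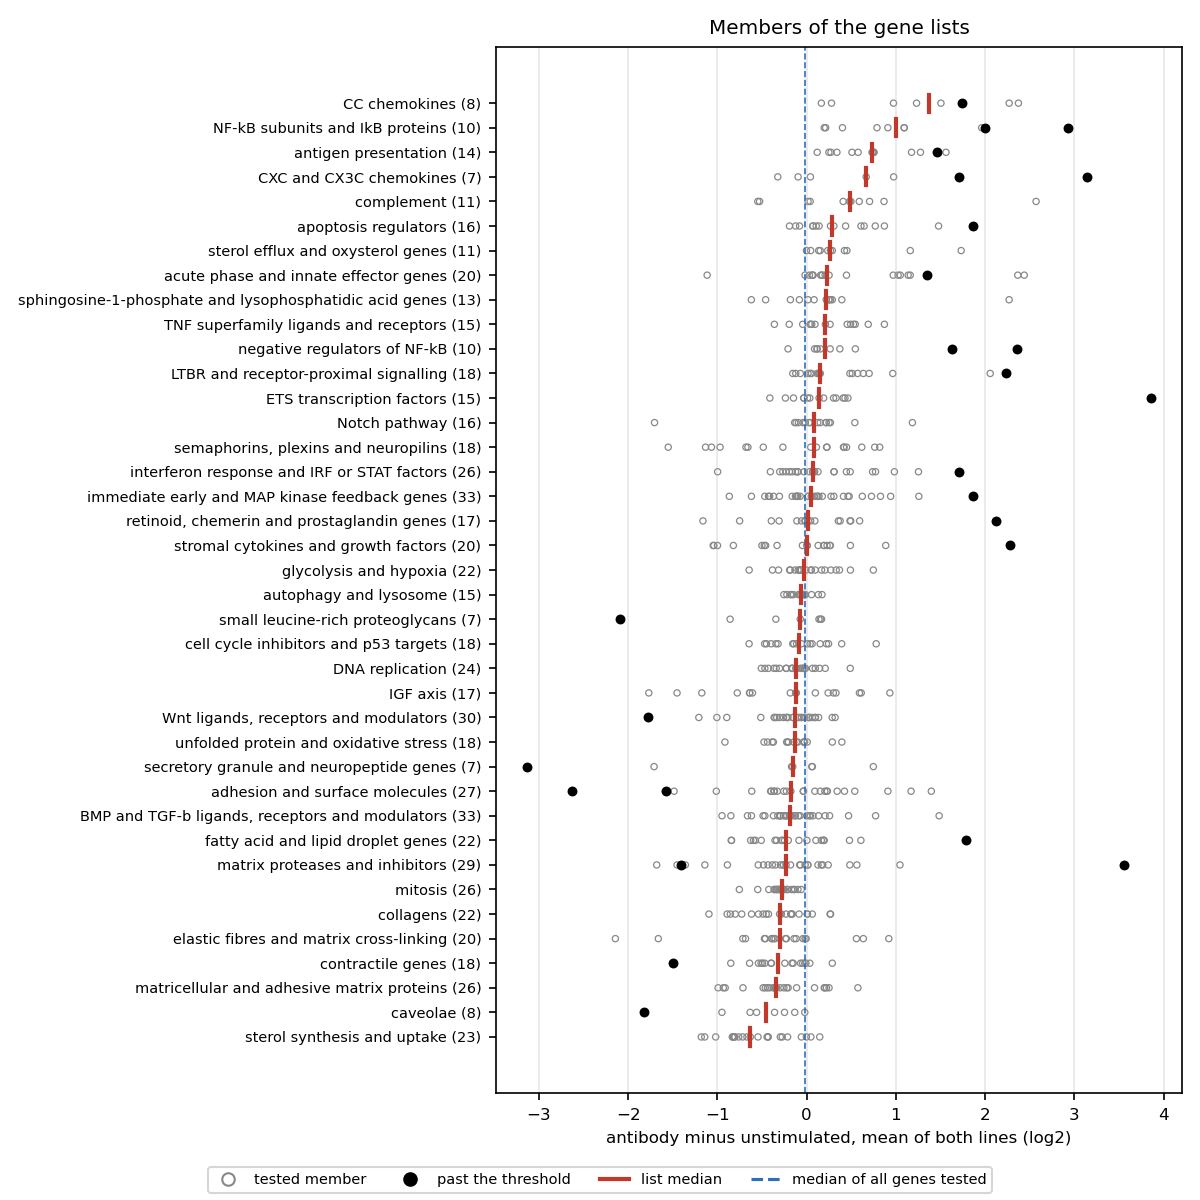
Antibody minus unstimulated difference (log2, mean of both lines) of each tested member of 39 gene lists, with the number tested in brackets. Filled points passed the threshold in limma, open ones did not, red bars are list medians and the dashed line is the median of all genes tested (-0.02). List medians run from -0.63 in sterol synthesis and uptake to 1.37 in CC chemokines, and NF-κB subunits, negative regulators of NF-κB and CXC chemokines each hold 2 filled points on the right.

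Proliferation genes belonged to neither side of the shared response. Of 26 tested mitosis genes 25 had opposite signs in the lines, against 4801 of all 11988 genes tested, and none passed, with a median of 0.42 in BLS4 and -0.97 in BLS12. Mki67 had 0.64 and -0.84, and Cdk1, the mitotic kinase, 0.29 and -0.86. Of 24 DNA replication genes 22 had opposite signs (0.29 and -0.58 as medians), and none passed. Averaged over the lines their medians were -0.28 and -0.12, values that describe neither line.

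The other lists held few calls or none. Of 22 fatty acid and lipid droplet genes 1 rose (Angptl4), 0 fell and 21 did not pass, with a median of -0.23, and Lpl, the lipase that Angptl4 inhibits, had -0.57 and -1.12. No member passed in limma among 15 ligands and receptors of the TNF superfamily (median 0.21) or 33 BMP and TGF-β genes (-0.19). The same held for 16 Notch genes (0.08), 13 genes of sphingosine-1-phosphate and lysophosphatidic acid (0.22) and 18 cell cycle inhibitors and p53 targets (-0.09). It also held for 22 glycolysis and hypoxia genes (-0.03, with 16 of opposite sign in the lines) and 18 genes of the unfolded protein and oxidative stress responses (-0.13). Grem1, a BMP antagonist of reticular cells, had 2.16 in BLS4 and 0.81 in BLS12.

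LN stroma and MEF shared no array with the antibody comparison and gave a separate reading of the same genes. Of the 24 genes that rose, 23 had a higher level in LN stroma than in MEF, against 42.5% of all genes tested, and 20 were at least 2-fold higher there, against 8.22%. None was at least 2-fold lower in LN stroma, against 11.2% of all genes. The median LN stroma minus MEF difference was 3.50, against -0.11 over all genes tested. These counts include Cd74, Ubd, Slc15a3 and Gsap, which entered the test only through their antibody arrays. Spib, Cxcl10 and Rarres2 were among the genes that also needed an antibody array to enter. Cxcl10 was the most distant, at 13.00 in LN stroma and 6.17 in MEF, followed by Rarres2 at 11.18 and 5.60 and Cp at 12.20 and 7.37. Gsap was the exception, at 5.25 in LN stroma and 5.59 in MEF, and Abcb1b (8.23 and 7.70) and Ubd (5.65 and 4.74) were among the nearest to equal.

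The genes that fell were divided. LN stroma was higher than MEF in 5 of the 9, by at least 2-fold in 4, and lower by at least 2-fold in 3, with a median of 0.56. Kcne4 (11.06 and 5.41), Aoc3 (9.77 and 5.25), Sfrp2 (10.88 and 7.92) and Ogn (11.02 and 9.29) were higher in LN stroma. Cnn1 (6.15 and 10.20), Ctla2a (4.93 and 8.06) and Cav1 (9.04 and 10.38) were lower. Scg2 stood at 5.68 and 5.81, at about the array medians, and among the 6 arrays its highest levels were those of the unstimulated lines. Of all genes meeting the size rule, 45 of 52 that were higher with antibody and 16 of 28 that were lower stood higher in LN stroma than in MEF. Of those 52, 6 lay below the median in both unstimulated lines and entered only through their antibody arrays. LN stroma and MEF are single arrays that differ in tissue, age, culture and sorting as well, so the values carry no test.

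**Figure D5:**
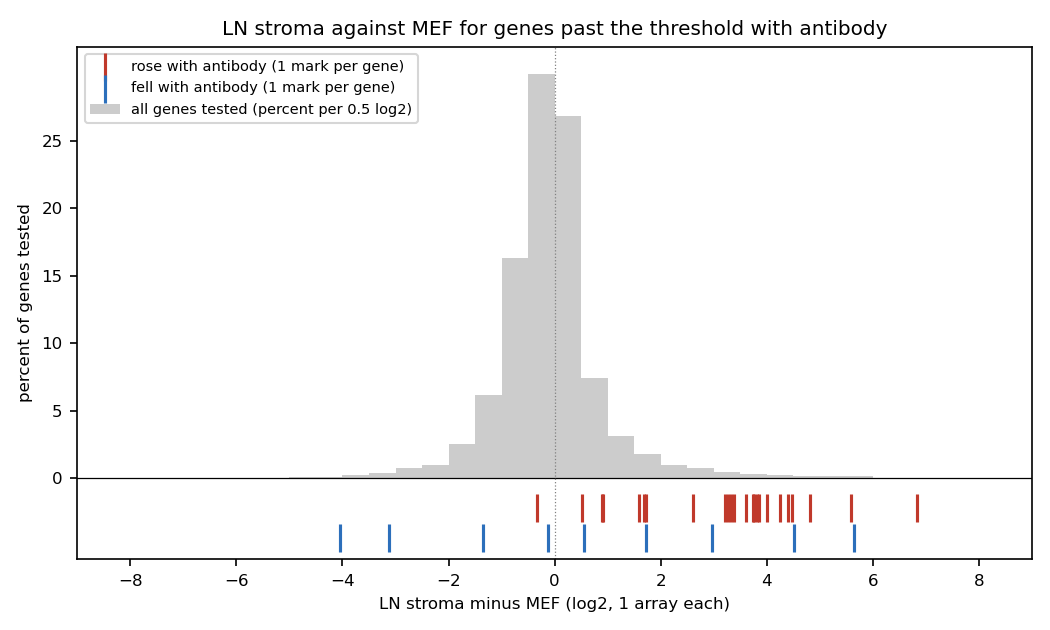
LN stroma minus MEF difference (log2, 1 array each) of all genes tested (grey, percent of genes per 0.5 log2 units) and of each gene past the threshold with antibody (marks below the axis, red for the 24 that rose and blue for the 9 that fell). Red marks lie right of 0 except Gsap, with a median of 3.50, while blue marks lie on both sides.

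Markers of the labelled cell type were present in the lines: 10 of 11 reticular stroma markers with an entry lay at or above the array median in all 4 arrays, and Fap alone was low, at 3.24 to 3.39. MEF also had 10 of 11, so this count does not set the lines apart from embryonic fibroblasts. Of 5 epithelial markers, 1 reached the median in unstimulated BLS4 and 3 in each other line array, against 4 in LN stroma and 3 in MEF. Leukocyte markers were at the floor, with 0 or 1 of 8 at or above the median per array (Cd3e, by a small margin) and Ptprc at 4.06 to 4.54. Summed leukocyte intensity was 195.7 to 246.0 in the lines, 298.7 in LN stroma and 231.7 in MEF. Of 9 macrophage and dendritic cell markers 2 reached the median in each line array, and their summed intensity was 693.0 and 660.2 in BLS4 and 471.9 and 1082.6 in BLS12, unstimulated and treated. The increase in BLS12 was mainly Lyz2, which had -0.70 in BLS4 and 1.81 in BLS12. Its part in the shared response was not tested. In MEF 7 of these 9 reached the median (summed intensity 2260.2), against 2 of 9 in LN stroma (421.5), and 6 of 9 endothelial markers did so in LN stroma (746.6) against 2 of 9 in MEF (632.4). Their part in the LN stroma against MEF values was not tested. From RNA of whole cultures, fewer cells of a kind and less RNA per cell cannot be told apart.

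At the edge of the threshold the values ran on without a gap. Just inside it lay Aoc3 and Ogn, each with an adjusted p of 0.0485. Just outside lay Casp4, Psmb10, Slc20a1, Atp10a and Pappa at 0.0518 and Fzd4, Jak2 and Slc7a7 at 0.0521, all of which met the size rule in both lines. Slc20a1, a phosphate transporter, had 1.25 in BLS4 and 1.64 in BLS12, and Slc7a7, an amino acid transporter subunit, 1.21 and 1.60. On the lower side Pappa, a protease of IGF-binding proteins, had -1.66 and -1.25 and Atp10a, a phospholipid flippase, -1.19 and -1.43.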

How the data were processed

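Total RNA of 6 samples was measured on single-colour Affymetrix arrays. The deposited table holds a linear intensity per probe set entry, which the authors computed in Affymetrix Expression Console 1.1, per the submitters' processing notes. How probes were summarised and arrays normalized, and on which build, is not given in the sources used here. No intensity lay under 3.55, and log2 was taken with no offset. Of 35557 entries, 21789 name 1 gene in the platform annotation, 1621 several and 12147 none; the first kind was used, with the brightest entry of each of 19938 genes (999 had over 1). Median intensities ran from 51.5 to 56.3, and precision is limited by how few arrays there are.

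Genes at or above the array median in at least 2 of the 4 cell line arrays were fitted with limma 3.58.1 in R 4.3.3 (lmFit, eBayes, two-sided, Benjamini-Hochberg over 11988 genes, threshold 0.05) as line plus antibody. Each line was its own control, since the labels give each line in both conditions, and the single residual degree of freedom (prior 4.59, prior SD 0.151) is the disagreement of the lines. On simulated data with 200 changed genes, 12.52% of the calls were false, a larger share than the threshold of 0.05 names. The fit also missed most changes well under 2-fold. LN stroma and MEF entered no fit.

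The text names every gene past the threshold, members of the gene lists that were past it, 2-fold in both lines or central to the pathway, genes just around the threshold, and further list members as examples chosen after their values were seen. The members, the 44 lists (5 of them cell type markers) and this rule were chosen with earlier results of these data known. Symbols matched RefSeq by Entrez ID in 21698 entries, with older list symbols updated through RefSeq synonyms. Alternatives were other scalings, filters, entry rules, offsets and folds, the fit without the block and each line alone.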

Additional observations from a re-analysis of the deposited data

Results flagged for a closer look

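Outside the genes analysed, 31 probe set entries that the annotation gives several genes or none differed at least 2-fold the same way in BLS4 and BLS12, with 27 above and 4 below their unstimulated level. Of the 815 bright enough entries with several genes 0.368% were so apart, and of the 4339 with none 0.645%, against 0.617% of the entries with 1 gene. They have no gene name here and entered no test.

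Tnfsf11, which encodes RANKL, a ligand made by lymphoid stroma, differed in opposite directions in the lines, by -0.15 in BLS4 and 0.23 in BLS12. The difference between the lines was not tested, and with 1 array per line and condition both values are small.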

How the results depend on the processing

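The count of 33 genes past the threshold (24 higher, 9 lower) depended on the scaling and the filter. It became 98 (54 higher, 44 lower) with each array centred on its median, which takes the treated BLS12 array down by 0.13 log2 units and the treated BLS4 array by 0.02 relative to their controls, and 6 (5 higher, 1 lower) both after quantile normalization and with log2(intensity + 16). It was 54 with no filter on dim genes. Where all 4 arrays had to reach the median, which left 10777 genes, it was 115. The 21 of the 33 that met this filter all passed, and the rest were not tested under it. With limma-trend it was 45 and with the mean of a gene's entries 33. Without the replicate block, that is with the lines not paired, 0 genes passed in limma and 241 had an unadjusted p under 0.05; the same line in both conditions makes the pairing part of the design.

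By size, 303 genes were at least 1.5-fold and 24 at least 3-fold apart in both lines, in place of 80 at 2-fold. A single line gave 188 (BLS4) or 447 (BLS12). Centring left 80 genes by size, 45 higher and 35 lower, against 52 and 28. None of the 33 genes past the threshold reversed its direction under the alternatives run. For each line alone this was fixed in advance, since all 33 were at least 2-fold apart the same way in both lines. The fit without the block and limma-trend left every difference as it was. None of the 33 had a further entry, so averaging entries changed nothing either. Centring moved each by 0.0755, against a smallest difference of 1.30. The directions could therefore not reverse under these settings. Other genes given with 1 value per line, such as Mki67 (0.64 and -0.84) and Ets1 (-0.12 and 1.05), have opposite signs in the lines. Apart from the settings given, the cause of these shifts was not tested.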

Other observations

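Neighbouring genes were found among the 80 genes that met the size rule. In RefSeq's gene order on GRCm38.p6, 3 pairs had no protein-coding gene between them: Birc2 and Birc3 on chromosome 9 and Ccl2 and Ccl7 on chromosome 11, both higher with antibody, and Kcne4 and Scg2 on chromosome 1, both lower.

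Guidance and retinoid genes had values not described above. None of 18 tested semaphorins, plexins and neuropilins passed in limma. In both lines 9 were positive and 8 negative, against 28.3% and 31.5% of all genes tested. The receptor Plxnd1 had 0.71 in BLS4 and 0.81 in BLS12 and Sema4c 0.72 and 0.92, against -0.91 and -1.03 in Nrp1. Dhrs3, a reductase of retinaldehyde, was 2-fold lower in both lines (-1.17 and -1.15), and Rarres1 had 1.01 and 0.18. In the IGF axis none of 17 passed, with Igf1 at -0.96 and -2.58.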
